A study of Mus musculus with 5 samples.

Results

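In mouse epiblast stem cells of the line EpiSC9, 2481 autosomal H3K4me3 peaks overlapped no peak of H3K4me1, H3K27ac or H3K27me3. They were 9.04% of the 27440 H3K4me3 peaks considered (95% Wilson interval 8.71 to 9.39) and are called H3K4me3-only peaks here. The H3K4me3 list held 28941 peaks, of which 27970 lay on chromosomes 1 to 19. The 30 peaks in the 110 kb of chromosome 11 that start at 3000000 and then the 500 widest remaining peaks were set aside, which left the 27440. Members were thus chosen by the positions of the authors' peak calls in all 4 lists and by peak width, so neither the lack of overlap nor what follows from it is a finding. An overlap was at least 1 bp, and all positions are 1-based on mm9. Culture medium contained 10 ng/ml FGF2 over a feeder layer of irradiated embryonic fibroblasts, and 5000000 crosslinked cells went into each immunoprecipitation. Each of the 4 marks had 1 library and no replicate. Every value below therefore describes these libraries, intervals cover counting over peaks only, and no p-value is given because peaks of 1 library are not replicates. Without read counts in the lists the sequencing depth is unknown, and no gene is named because the annotation at hand is of another genome build.

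H3K4me3 is deposited at promoters by methyltransferases of the COMPASS family and is strongest at promoters rich in CpG. At transcribed genes it usually lies together with H3K27ac and is flanked by H3K4me1, a mark shared with enhancers. At developmental genes of pluripotent cells it often lies with H3K27me3, the mark of Polycomb complexes, in the combination called bivalent. The peaks described here overlap no called peak of these marks, although such peaks may lie beside them. Lack of a called peak does not show that a mark was absent, since weak signal in any of the other 3 libraries leaves no entry in its list.

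H3K4me3-only peaks were narrow and weak. Their median width was 309 bp (interquartile range 252 to 449), against 1067 bp (513 to 1671) for the other 24959 peaks. They made up 3.38% of the sequence covered by the 27440 peaks. Their median score was 73.9 (56.8 to 177), against 1119 (188 to 3100) for the other peaks. The score is the authors' value per peak and serves to rank peaks within the list, though not those at 3100 or more. The lowest score in the list was 50.01, and 1545 H3K4me3-only peaks (62.3%) scored below 100. Width and score bear on the chance of meeting another peak and thus on membership, so these differences are descriptions. The class nearest in size was the 7226 peaks that overlapped H3K4me1 but no H3K27 mark, for which the median width came to 615.5 bp and that of the score to 272.

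The share of peaks without another mark fell with each step of score and of width. It was 35.3% (33.4 to 37.3) of peaks scoring 50 to below 60, 12.2% of those from 100 to below 300, and 0.235% (0.145 to 0.381) of the 6816 peaks at 3100 or more, near which many scores end. By width, it was 44.6% below 250 bp and 0.391% at 2000 bp or more. Score still separated peaks of like width: of peaks from 500 to below 1000 bp, 17.4% lacked another mark when they scored below 100 (21 of 121), 6.71% from 100 to below 1000, and 3.69% at 1000 or more. Below 250 bp this order was not seen, with 44.1% for scores below 100 and 52.8% (38 of 72, interval 41.4 to 63.9) for scores of 100 to below 1000.

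**Figure D1:**
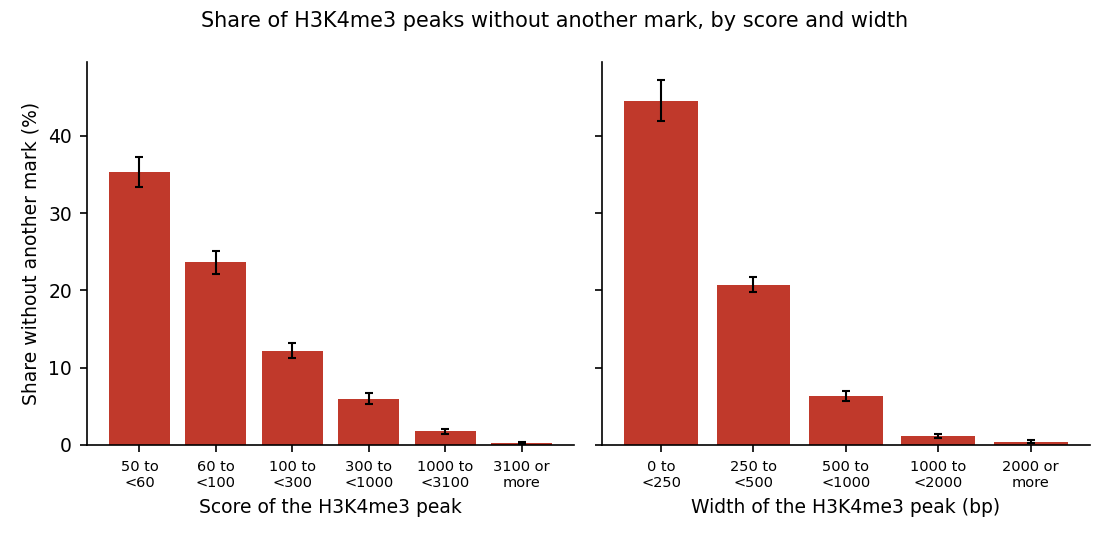
Share of the 27440 H3K4me3 peaks that overlapped no other mark, in %, by score (left) and by width in bp (right), with bars for the share and lines for the 95% Wilson interval. The share is 35.3% in the lowest and 0.235% in the highest score class, and 44.6% in the narrowest and 0.391% in the widest class.

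The distance from an H3K4me3-only peak to the nearest other H3K4me3 peak, measured from edge to edge, had a median of 13.3 kb (95% interval of the median 11.9 to 15.2). For all other peaks the median was 1.36 kb (1.2 to 1.54). The distances spread over more than the middle values show, with a lower quartile of 0.357 kb and an upper quartile of 64.0 kb. Another H3K4me3 peak lay within 1 kb of 735 H3K4me3-only peaks (29.6%, 27.9 to 31.5), and none lay within 100 kb of 457 (18.4%, 16.9 to 20). In the other classes the share within 1 kb was larger, at 39.4% for peaks with H3K4me1 and no H3K27 mark, 52.8% for peaks with H3K27ac and no H3K27me3, and 51.1% for peaks with H3K27me3 and no H3K27ac. The share with no other H3K4me3 peak within 100 kb was smaller there, at 7.5%, 3.99% and 6.13% in the same order.

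**Figure D2:**
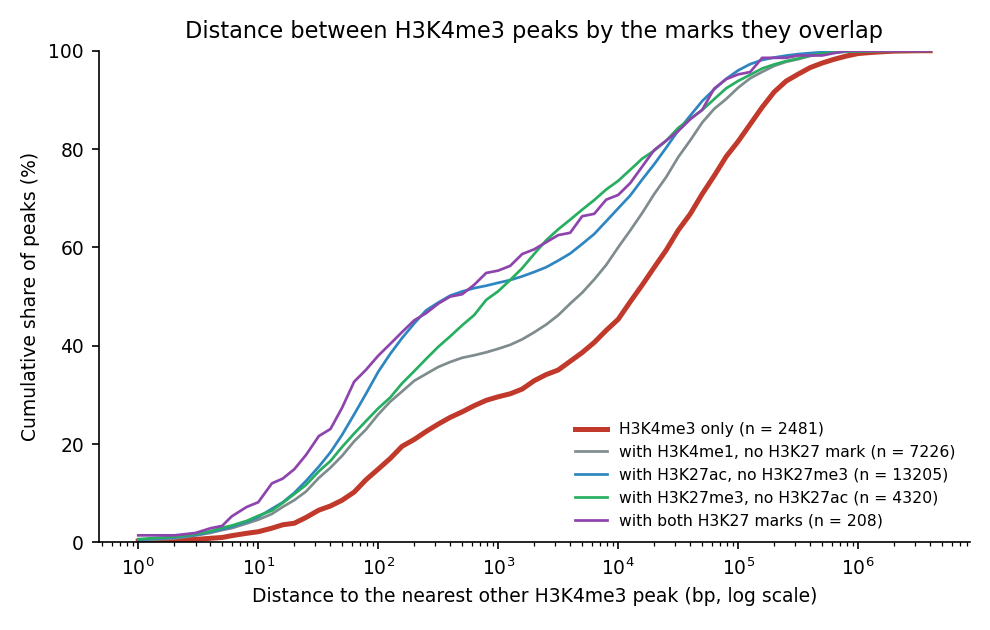
Cumulative share of H3K4me3 peaks in % against the distance to the nearest other H3K4me3 peak in bp on a log axis, 1 line for each combination of marks. The line of H3K4me3-only peaks lies to the right of the others both below and beyond 1 kb. It reaches 29.6% at 1 kb and 81.6% at 100 kb.

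The medians of the classes stood farthest apart among weak peaks. H3K4me3-only peaks scoring below 100 (n = 1545) had the next H3K4me3 peak 19.1 kb away in the median, with quartiles of 1.92 and 77 kb. Peaks of the same score range lay at 0.390 kb with H3K4me1 and no H3K27 mark (n = 1942), at 0.238 kb with H3K27ac (n = 1296) and at 0.158 kb with H3K27me3 (n = 621). Weak peaks that met another mark thus mostly had another H3K4me3 peak beside them, within 1 kb in 54.5%, 63.6% and 83.3% of cases, against 21.7% of weak H3K4me3-only peaks. This order of the shares within 1 kb did not hold at higher scores. From 100 to below 1000, another H3K4me3 peak lay within 1 kb of 43.0% of H3K4me3-only peaks (n = 809), more than the 37.3% with H3K4me1 and no H3K27 mark, whereas it was 69.1% with H3K27ac and 62.9% with H3K27me3. The median distances in that band were 5.76, 5.2, 0.13 and 0.372 kb in the same order. At 1000 or more the share was 40.9% of H3K4me3-only peaks, against 27.9% with H3K4me1 and no H3K27 mark, 45.6% with H3K27ac and 31.4% with H3K27me3. Among peaks scoring 1000 or more the interquartile ranges of the classes overlapped widely, with medians of 7.83 kb for H3K4me3-only peaks (n = 127), 10.7 kb with H3K4me1 and no H3K27 mark, 3.3 kb with H3K27ac and 6.58 kb with H3K27me3. The share with no other H3K4me3 peak within 100 kb stayed largest for H3K4me3-only peaks. From 100 to below 1000 it was 13.2%, against 6.12%, 2.22% and 1.73% in the same order. At 1000 or more it was 19.7%, against 13.3%, 4.55% and 11.5%.

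**Figure D3:**
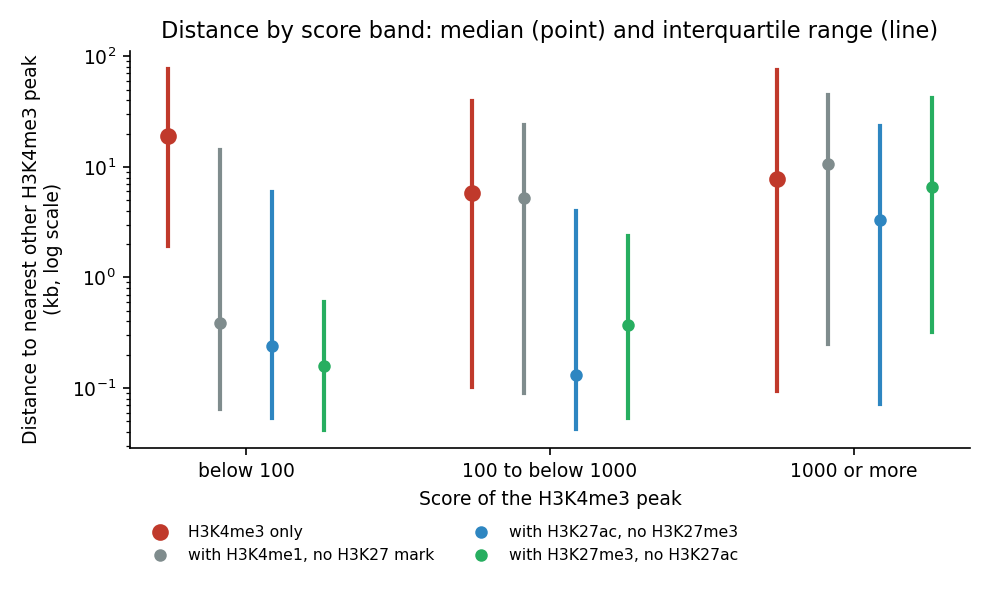
Distance to the nearest other H3K4me3 peak in kb on a log axis for 3 bands of score, with the median as a point and the interquartile range as a line, for H3K4me3-only peaks and 3 other classes. Below a score of 100 the median is 19.1 kb for H3K4me3-only peaks and at most 0.390 kb for the others, while at 1000 or more all 4 medians lie between 3.3 and 10.7 kb.

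The 735 H3K4me3-only peaks with a neighbour within 1 kb scored highest among the classes of distance, with a median of 112 and 45.6% below 100. Their neighbour was itself free of other marks in 333 cases and carried H3K27ac without H3K27me3 in 275. It carried H3K4me1 and no H3K27 mark in 78 cases and H3K27me3 without H3K27ac in 47, and both H3K27 marks in 2. The neighbour scored higher in 536 of the 735 (72.9%). When H3K4me3 peaks within 1 kb of each other were joined, the joined region overlapped another mark for 441 of the 735 (60%, 56.4 to 63.5). These 441 therefore stood at the edge of, or inside, a joined region that was not free of other marks. The gaps between the joined peaks count as part of that region.

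H3K4me3-only peaks beyond 1 kb from other H3K4me3 peaks had lower median scores, with no steady order among them. The median score was 64.6 for the 223 peaks at 1 to 5 kb, 72.2 for the 515 at 5 to 25 kb, 67 for the 551 at 25 to 100 kb and 62.4 for the 457 beyond 100 kb. Scores of 1000 or more occurred in every class of distance, in 7.07% of peaks within 1 kb (52 of 735), 4.48% at 1 to 5 kb, 3.11% at 5 to 25 kb, 4.36% at 25 to 100 kb and 5.47% beyond 100 kb (25 of 457). Across the 2481 peaks Spearman's rho between distance and score was -0.235, and between width and score 0.744.

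Other marks lay at widely varying distances from H3K4me3-only peaks. The nearest peak of any other mark was 7.54 kb away in the median (quartiles 0.849 and 37.1 kb) and came within 1 kb of 665 H3K4me3-only peaks (26.8%, 25.1 to 28.6), while 418 (16.8%) had none within 100 kb. It was an H3K4me1 peak in 1481 cases, H3K27ac in 639 and H3K27me3 in 361, in a ranking that the length of the lists also bears on, at 76362, 32808 and 11419 autosomal peaks. H3K4me1 on both sides within 5 kb, the arrangement around an active promoter, was found for 222 peaks (8.95%). A further 676 (27.2%) had H3K4me1 on 1 side only. Inside a tract of another mark lay 96 (3.87%) between H3K27ac peaks at most 10 kb apart, and 47 (1.89%) between H3K27me3 peaks at most 5 kb apart. The H3K27ac count depended on the gap allowed, with 54 at 5 kb and 201 (8.1%) at 20 kb. No other positions were measured for comparison, so whether these distances and counts differ from what peak density gives was not tested.

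The rule drew a fine line at its edge. Another mark came within 50 bp of 89 H3K4me3-only peaks, with medians of 100 for the score and 339 bp for the width. Other marks covered at most 50 bp of 71 peaks that were not members, with medians of 110 and 349 bp. By width, the narrowest of the 500 peaks set aside measured 3389 bp and the widest peak kept 3388 bp, and the widest H3K4me3-only peak reached 3168 bp.

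The surroundings of H3K4me3-only peaks held fewer peaks of each mark than those of the class nearest in size. Within 500 kb on either side they had a median of 14 other H3K4me3 peaks (interquartile range 6 to 25), 38 H3K4me1 peaks, 15 H3K27ac peaks and 3 H3K27me3 peaks. Peaks with H3K4me1 and no H3K27 mark had 21 (12 to 38), 62, 23 and 7. By definition each of these overlaps an H3K4me1 peak and H3K4me3-only peaks overlap none. Score was not matched either, so the counts are descriptions. No peak of any list lay within 25 kb of 559 H3K4me3-only peaks (22.5%, 20.9 to 24.2), and none within 100 kb of 221 (8.91%). These lone peaks were weak, with median scores of 61.8 for the 559 and 57.4 for the 221, which is close to the bottom of the list.

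A small set combined a high score with solitude, though solitude was not more common among strong peaks. Of all 2481 H3K4me3-only peaks, 1720 (69.3%) had another mark within 25 kb. A score of 1000 or more was found for 4.83% of the 559 lone peaks and for 5.12% of all 2481. Of the 127 H3K4me3-only peaks scoring 1000 or more, 36 (28.3%, 21.2 to 36.7) had no other mark within 25 kb, and 27 of these had no other H3K4me3 peak within 25 kb either. The 5 of these 27 with the highest scores were picked after their values were seen. The first, on chromosome 14 at 19725226 to 19726987, scored 3230, the highest value listed for any H3K4me3-only peak. It was 59.9 kb from the nearest H3K4me1 peak, 61.2 kb from H3K27ac, 1230 kb from H3K27me3 and 148 kb from another H3K4me3 peak. The second, on chromosome 15 at 8118488 to 8119928, scored 3100 and had every other peak at least 57.2 kb away. Both were therefore strong calls with nothing else listed near them. On chromosome 5, the peak at 5748423 to 5750249 scored 2697 and the peak at 9265756 to 9267071 scored 2461, with the nearest other mark at 39.9 and 79 kb. The fifth, on chromosome 2 at 22599504 to 22600771, scored 2151 and had H3K4me1 at 28.2 kb. Their widths ran between 1268 and 1827 bp, above the median of 1127 bp for all 127 strong H3K4me3-only peaks. These 5 were picked by score, and width rose with score across H3K4me3-only peaks (Spearman's rho 0.744), so this is a description.

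Of the 16 H3K4me3-only peaks scoring 3100 or more, 14 scored exactly 3100, and ties were ordered by width to name 5. What this shared value stands for is not stated, so the order of these 16 is not read as one of strength. Another mark lay within 1 kb of 8 of the 16, and 2 had none within 25 kb, the peaks on chromosomes 14 and 15 above. On chromosome 13 at 83662243 to 83664266, with a score of 3125, the nearest H3K4me1 peak was 4.35 kb away. The peak on chromosome 1 at 99556840 to 99559281 scored 3100, and an H3K27me3 peak lay 11 bp from it. On chromosome 8 at 86937930 to 86940298, also with 3100, H3K4me1 came within 164 bp. Both were members by a narrow gap. The peak on chromosome 7 at 104229585 to 104231781, again with 3100, had H3K27me3 at 743 bp. Among all 127 strong peaks, 47 (37%) had another mark within 1 kb. Chromosome 13, singled out after the counts were seen, held the most of them, 16 of 127, among 571 peaks of that strength of any class there. It had 138 H3K4me3-only peaks of any score, and 5.12% of all 2481 scored 1000 or more.

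The 5 H3K4me3-only peaks farthest from other H3K4me3 were all near the lower end of the scores. The first, on chromosome 2 at 87904653 to 87904988, scored 70.2 and was 2514 kb from the next H3K4me3 peak. On chromosome 1, the peak at 103703543 to 103703833 scored 54.8 at a distance of 2034 kb, and the peak at 117581327 to 117581645 scored 50.3 at 1918 kb. On chromosome 6, the peak at 79969538 to 79969797 scored 53.5 at 1904 kb, and the peak at 45315470 to 45315626 scored 68.5 at 1679 kb. Each was at most 336 bp wide. Remoteness from H3K4me3 was not remoteness from every mark, since the first of them had an H3K27ac peak at 3.13 kb and the second at 13.3 kb.

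Most H3K4me3-only peaks were single. Joining such peaks within 10 kb, with no other H3K4me3 peak between them, left 2000 alone and put 481 (19.4%) into 192 runs, of which 144 were pairs and 11 held 5 or more. The run with the most members lay on chromosome 18 at 37089599 to 37133696, with 10 peaks that scored 97.1 to 1226 (median 208) and were a median of 5.88 kb apart. On the same chromosome, 7 peaks at 37151844 to 37180864 scored 128 to 1398, and 7 at 37893299 to 37914241 scored 50.5 to 125. The run on chromosome 6 at 47965918 to 47978825 held 8 peaks with scores of 52.1 to 179. The last of the 5, on chromosome 1 at 85266585 to 85277347, held 7 peaks with scores of 58.7 to 125.

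The 3 runs on chromosome 18 belonged to 1 dense Mb, from 37 to 38 Mb, in which 43 of 63 H3K4me3 peaks (68.3%) had no other mark. The next highest number in any bin of 1 Mb was 13. These 43 peaks had a median width of 381 bp, a median score of 186 and a median distance of 4.11 kb to the next H3K4me3 peak, and 2 scored 1000 or more. Other marks were present in the same Mb, with 22 H3K4me1, 16 H3K27ac and 2 H3K27me3 peaks. The 8 H3K4me3 peaks there with H3K27ac had a median score of 1209.

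Elsewhere whole bins lacked the other marks. In 66 of the 1229 bins of 1 Mb that held H3K4me3-only peaks, no peak of H3K4me1, H3K27ac or H3K27me3 was listed. They held 206 H3K4me3-only peaks. That the H3K4me3 peaks of such bins have no other mark follows from how the bins were picked. The fullest was chromosome 1 from 85 to 86 Mb, with 13 H3K4me3 peaks that scored from 50.8 to 125 and had a median width of 271 bp. These bins were picked after the values were seen.

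The 2 widest H3K4me3-only peaks lay in a single stretch. On chromosome 7 at 38960784 to 38986429, 10 H3K4me3 peaks without another mark covered 20.9 of 25.6 kb (81.4%), 9 of them counted as H3K4me3-only and the tenth, of 3442 bp, set aside among the 500 widest. It was the only 1 of those 500 without another mark. Because it lies between them, the 9 were counted as runs of 5 and 4, and the stretch is not among the 5 runs named above. Widths of the 9 ranged from 837 to 3168 bp and scores from 65.7 to 1592. Each was wider than the median H3K4me3-only peak of its score band. That median was 264 bp below 100, 476 bp from 100 to below 1000 and 1127 bp at 1000 or more. The 2 widest measured 3168 and 3041 bp. The nearest H3K4me1 peak was 3.93 kb away, H3K27ac 7.83 kb and H3K27me3 21.3 kb. The third in width, on chromosome 8 at 125950144 to 125952704, measured 2561 bp and had H3K27me3 99 bp away. The next, on chromosome 1 at 87487574 to 87490049, measured 2476 bp and had its nearest other mark at 142 kb. The fifth was the 2442 bp peak on chromosome 1 at 99556840 already described.

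**Figure D4:**
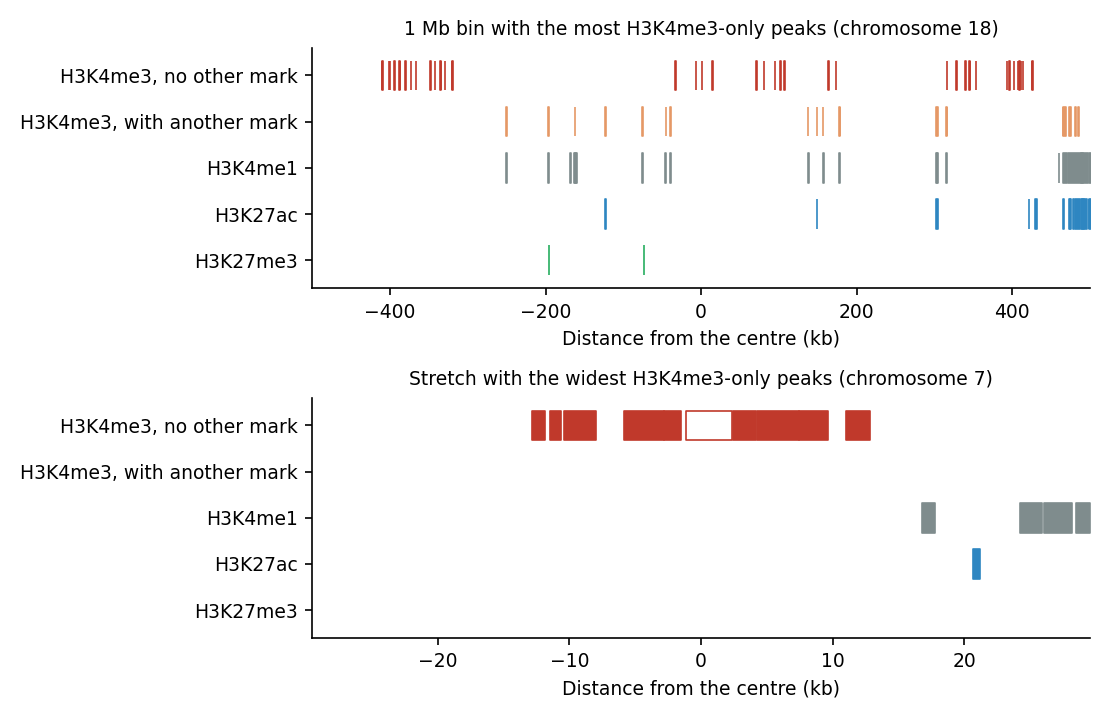
Peaks of the 4 marks along the Mb of chromosome 18 with 43 H3K4me3-only peaks (top) and the stretch of chromosome 7 with the 2 widest such peaks (bottom), against the distance from the centre in kb; filled boxes are peaks and the open box is the peak of 3442 bp set aside for its width. H3K4me3 peaks without another mark form groups on chromosome 18 and a nearly unbroken block on chromosome 7.

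The autosomes differed in the share of H3K4me3-only peaks, from 16.5% on chromosome 14 (161 of 975, interval 14.3 to 19) to 4.98% on chromosome 19 (47 of 944, 3.76 to 6.56). The share was lower where H3K4me3 peaks were dense, with a Spearman's rho of -0.7 over the 19 chromosomes against H3K4me3 peaks per Mb and -0.833 against H3K4me1 peaks per Mb. The number of H3K4me3-only peaks per Mb showed little such relation (rho 0.053) and ranged from 0.660 on chromosome 2 to 1.52 on chromosome 17, while H3K4me3 density ranged from 8.0 to 19.3 per Mb. Both negative correlations are partly built in. H3K4me3 peaks are the denominator of the share, and overlap with an H3K4me1 peak excludes a peak by the rule. The chromosomes share their libraries and their base composition was not examined, so the correlations are descriptions. The median distance was 35.6 kb on chromosome 14 and 1.96 kb on chromosome 11, the chromosomes with the lowest and highest H3K4me3 density.

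**Figure D5:**
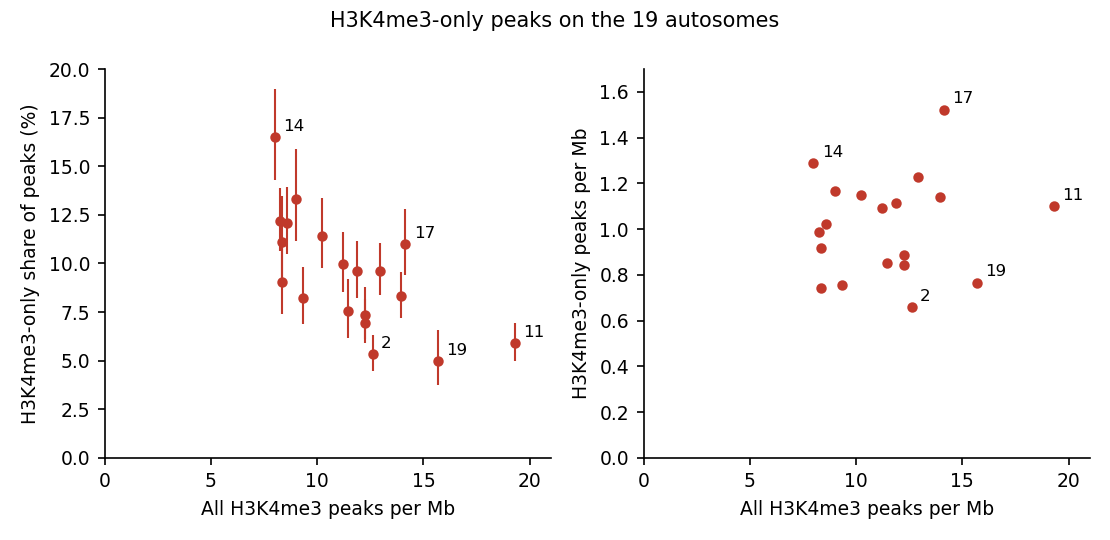
Share of H3K4me3-only peaks in % with 95% Wilson intervals (left) and their number per Mb (right) against all H3K4me3 peaks per Mb, 1 point for each of the 19 autosomes, with 5 numbered. The share is 16.5% on chromosome 14, with the lowest density, and 5.88% on chromosome 11, with the highest, and the number per Mb stays between 0.660 and 1.52.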

How the data were processed

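Chromatin immunoprecipitation and sequencing gave 1 library for each of 4 histone marks in EpiSC9 cells, and an input library was not used here. The authors deposited 1 list of peak intervals per mark with a score per peak. Bowtie 0.12.9, MACS 1.4 and Cufflinks, with no role given, and the build mm9 are named in the submitters' processing notes. Control, treatment of duplicates, threshold and score scale are stated in none of the sources used here, and the peaks carry names that begin with MACS, per the file columns.

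From these lists, overlap, edge-to-edge distance, runs and bins of 1 Mb were computed with Python 3.11.15 (pandas 2.3.3, numpy 2.4.6, scipy 1.17.1), and matplotlib 3.10.9 drew the plots. Wilson intervals accompany shares, and binomial order-statistic intervals accompany medians. Density per Mb uses the last peak end of a chromosome. The interval functions were tested on simulated data, with 0 mismatches against a direct search over 300 simulated peaks. No test was run: membership uses the peak calls themselves, and there are no replicates. Regions named are the 5 H3K4me3-only peaks with the highest score (ties by width), the 5 widest, the 5 farthest from other H3K4me3 and the 5 runs with the most members, and other regions are said to be picked later. The members, classes and named rules were chosen with earlier results of these data known. A deeper or cleaner library of another mark could have more peaks and then leave fewer H3K4me3-only peaks.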

Additional observations from a re-analysis of the deposited data

Results flagged for a closer look

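Peaks left out of the set also lacked other marks. On the X chromosome, 367 of 971 H3K4me3 peaks (37.8%, 95% Wilson interval 34.8 to 40.9) overlapped no other mark, against 9.04% of the autosomal peaks considered. Their median score was 192 and median width 518 bp, and 65 scored 1000 or more. Their median distance to the next H3K4me3 peak was 0.263 kb, against 0.238 kb for the 604 X-linked peaks with another mark, a pair of medians much closer to each other than the 13.3 and 1.36 kb on the autosomes. The lists were uneven off the autosomes. Of 76772 H3K4me1 peaks 76362 were autosomal, of 33600 H3K27ac peaks 32808, and of 16975 H3K27me3 peaks 11419. For H3K4me3 it was 27970 of 28941. How far the few H3K4me1 peaks off the autosomes bear on the 37.8% was not tested. In the stretch of chromosome 11 set aside, 29 of 30 H3K4me3 peaks lacked another mark, with a median score over the 30 of 329 and a median gap of 0.044 kb to the next H3K4me3 peak.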

How the results depend on the processing

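The number of H3K4me3-only peaks changed most with the score threshold of the lists. It was 936 with H3K4me3 peaks scoring 100 or more and 4237 with the other marks limited to scores of 100 or more, and it stayed within 1.5 times 2481 under the other 6 settings. The 936 follow from the filter, which removes the 1545 H3K4me3-only peaks scoring below 100. With another mark kept at least 1 kb away, the median distance to the next H3K4me3 peak was 24.8 kb, the share with one within 5 kb was 25.2% and the median score was 70.2, against 13.3 kb, 38.6% and 73.9. Joining H3K4me3 peaks within 1 kb gave 33.5 kb, 13.7% and 70.1, where the distance and the share follow by construction. With H3K4me3 scores of 100 or more the values were 11.8 kb, 41.6% and 247, where the rise in score follows from the filter. With other marks at 100 or more they were 10.6 kb, 42.3% and 113. Requiring 50% of the H3K4me3 peak to be covered moved the share to 41.5% and the score to 97.4, and adding X moved them to 41.2% and 79.6. Keeping the 500 widest peaks or the chromosome 11 stretch moved none of these values beyond its interval. The median distance was larger for H3K4me3-only peaks than for the other peaks, all classes pooled, under all 8 settings. It was 11.8 against 4.97 kb with only H3K4me3 peaks at 100 or more, and 33.5 against 17.8 kb when peaks were joined. None of these settings compared peaks of like score. Against peaks with H3K4me1 and no H3K27 mark, the medians were 5.76 and 5.2 kb at scores of 100 to below 1000. At 1000 or more they were 7.83 and 10.7 kb, in the reverse direction. The gaps that define a tract were chosen after seeing the data. For H3K27me3 the count was 52 at 10 kb and 63 at 20 kb, against 47 at 5 kb. No paired analysis was possible because each mark had 1 library and no test was run. The depth of the libraries is unknown, so weak signal of another mark under an H3K4me3-only peak was not detectable here.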

Other observations

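Several further bins of 1 Mb held H3K4me3-only peaks in number, and were picked after the values were seen. On chromosome 13 from 62 to 63 Mb, 10 of 12 H3K4me3 peaks had no other mark, at a median score of 227 and a median distance of 28.1 kb to the next H3K4me3 peak. On chromosome 17 from 17 to 18 Mb, it was 10 of 20 at a median score of 256 and 0.524 kb. Chromosome 13 from 74 to 75 Mb held 11 among 29 H3K4me3 peaks, at a median score of 131. On chromosome 14 from 112 to 113 Mb and on chromosome 4 from 145 to 146 Mb, no peak of another mark was listed. The 9 H3K4me3 peaks in each of these bins were therefore of this kind by the rule.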
